A study of Drosophila melanogaster with 12 samples.

Results

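The organic anion transporting polypeptides (Oatp) of Drosophila melanogaster form a family of 8 genes, all measured here in adult flies fed phenobarbital or sucrose. The members were the probe sets whose platform annotation names 1 of the 8 listed Oatp genes. This gave 8 probe sets, 1 for each gene, of 18769 on the array, which name 11982 distinct genes in all. The flies had been starved overnight and RNA was measured on 12 oligonucleotide arrays, 3 per group. The groups were DHR96 mutants on sucrose with 0.3% phenobarbital, DHR96 mutants on sucrose alone, Canton S wild type on sucrose with 0.3% phenobarbital and Canton S wild type on sucrose alone. Canton S is a common laboratory stock. DHR96 is a nuclear receptor encoded by Hr96, and phenobarbital is a sedative known to raise enzymes of drug metabolism. The titles name the samples only as E25 and CS; CS was taken to stand for Canton S, which leaves E25 for the mutant. The labels give neither the sex nor the age of the flies, nor the nature of the mutant allele. Separate cultures are not stated for the 3 arrays of a group, so p-values here measure only their spread, possibly technical.

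Oatp proteins are membrane carriers related to the SLCO family of mammals. They take up bulky, mostly anionic compounds without using a sodium gradient, among them steroid conjugates, other hormones, toxins and drugs. In insects much of the clearance of organic anions takes place in the Malpighian tubules, the renal tubules of the fly, where Oatp58Da and Oatp58Db are known to be expressed. Oatp74D, also called Ecdysone Importer, brings the steroid hormone ecdysone into cells. Oatp33Ea, Oatp58Dc and Oatp58Db carry further Ecdysone Importer names as synonyms in the Release 6 plus ISO1 MT gene table. Oatp58Da, Oatp58Db and Oatp58Dc lie next to each other on the chromosome in that table, with no other protein-coding gene between them. Oatp33Ea and Oatp33Eb are separated by a single protein-coding gene, CG5421.

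The values are log2 of the submitters' normalized intensity. A higher value means more transcript of that gene, and values of different genes cannot be set against each other because each probe set binds with its own strength. A gene was called when its adjusted p was under 0.05 (limma, Benjamini and Hochberg over all 18769 probe sets) and its change was at least 1.5-fold. Errors of single groups are SD over 3 arrays and errors of changes are SE from the fit. The arrays had median intensities of 38.5 to 47.5, and their number limits the precision. Hr96 was higher in the E25 arrays, taken here as the mutant, at log2 values of 9.91 to 10.30, against 8.20 to 8.85 in the CS arrays. Its transcript level thus separates the E25 and CS arrays. With neither the allele nor the place of the probe set within the gene stated, it does not check which of them are the mutant. Transcripts of both female and male tissues were present, in summed intensity 45043 to 104905 for 8 yolk, eggshell and oocyte markers and 13296 to 73691 for 7 accessory gland markers over the 12 arrays.

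Phenobarbital lowered the transcripts of Oatp58Da and Oatp58Db in both genotypes, and no Oatp gene was called higher in either. In the mutant 2 of the 8 genes fell and 0 rose, where 4.62% of all probe sets were called in that comparison, 1.53% lower. In wild type the same 2 genes fell and 0 rose, where 4.27% of all probe sets were called, 2% lower. At an unadjusted p under 0.05, 4 of the 8 members differed in the mutant, where 17.6% of all probe sets did, and 2 of 8 in wild type, where 14% did (limma). The median log2 change of the 8 genes was 0.10 in the mutant and -0.065 in wild type, against 0.0035 and 0.017 over all probe sets. As a whole-fly measurement, a lower value cannot tell fewer cells of a type from less RNA per cell.

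**Figure D1:**
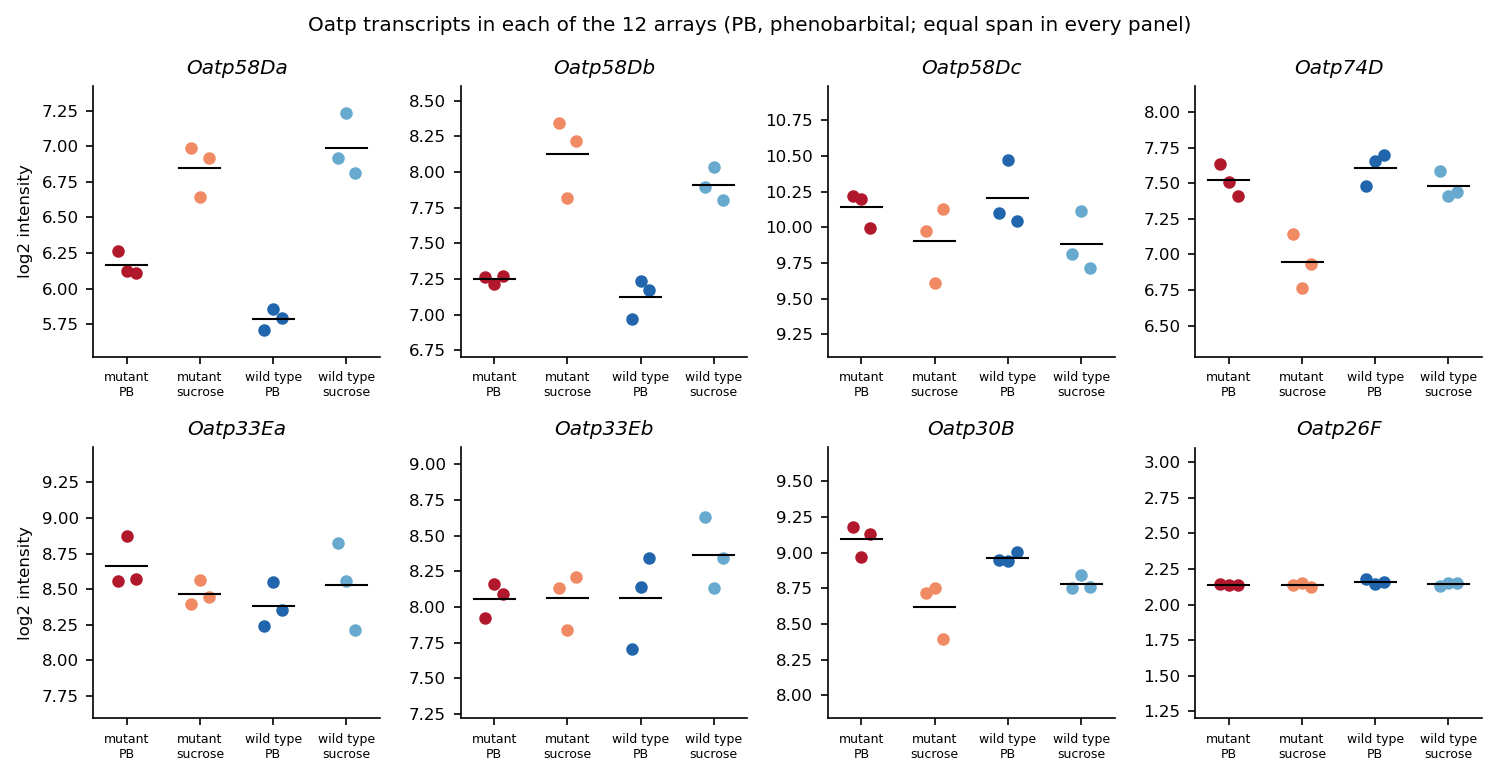
Each panel plots 1 Oatp gene, with log2 intensity on the vertical axis and the 4 groups of 3 arrays on the horizontal axis; points are single arrays and black lines are group means (PB, phenobarbital). Every panel spans the same number of log2 units. Oatp58Da and Oatp58Db sit lower on phenobarbital in both genotypes, Oatp74D sits low in the mutant on sucrose, and Oatp26F lies near 2.14 in all 12 arrays.

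Oatp58Da had the lowest change of the family in wild type, while in the mutant that of Oatp58Db was lower. Its log2 values were 6.26, 6.13 and 6.11 in the mutant on phenobarbital, against 6.99, 6.64 and 6.91 in the mutant on sucrose. In wild type they were 5.71, 5.86 and 5.79 on phenobarbital, against 6.92, 7.23 and 6.81 on sucrose. Every phenobarbital array thus lay below every sucrose array of its genotype. The fall was 1.60-fold in the mutant (log2 change -0.68 ± 0.12; adjusted p = 0.0088) and 2.30-fold in wild type (log2 change -1.20 ± 0.12; adjusted p = 0.00037). In the mutant the change was just past the minimum fold, and with 16 added to each intensity before the logarithm it was -0.58 and no longer called. 

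Oatp58Db also fell in both genotypes. Its log2 values were 7.26, 7.21 and 7.27 in the mutant on phenobarbital, against 8.34, 7.82 and 8.21 in the mutant on sucrose. In wild type they were 6.97, 7.23 and 7.17 on phenobarbital, against 7.89, 8.03 and 7.80 on sucrose. The diets did not overlap in either genotype. The fall was 1.83-fold in the mutant (log2 change -0.88 ± 0.13; adjusted p = 0.0033) and 1.73-fold in wild type (log2 change -0.79 ± 0.13; adjusted p = 0.0064). Averaged over both genotypes, where 5.7% of all probe sets were called, the log2 change was -0.83 ± 0.09 for Oatp58Db and -0.94 ± 0.08 for Oatp58Da.

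Oatp58Dc, the third gene of the 58D row, was not called in either genotype. Its log2 values were 10.22, 10.20 and 9.997 in the mutant on phenobarbital, against 9.97, 9.61 and 10.13 in the mutant on sucrose. In wild type they were 10.10, 10.47 and 10.05 on phenobarbital, against 9.81, 10.11 and 9.72 on sucrose. The diets overlapped in both genotypes. The log2 change was 0.23 ± 0.17 in the mutant (95% interval -0.14 to 0.61; adjusted p = 0.57) and 0.33 ± 0.17 in wild type (95% interval -0.051 to 0.70; adjusted p = 0.45). Both intervals leave room for a rise of over 1.5-fold, and neither reaches the falls measured for Oatp58Da and Oatp58Db.

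The separation within the row could be read inside each array. The log2 difference between Oatp58Dc and Oatp58Db, centred on its mean over the 12 arrays, was 0.29 to 0.56 in the mutant on phenobarbital, against -0.80 to -0.52 in the mutant on sucrose. For wild type it was 0.45 to 0.81 on phenobarbital, against -0.52 to -0.35 on sucrose. The difference between Oatp58Dc and Oatp58Da, centred in the same way, was 0.30 to 0.49 in the mutant on phenobarbital, against -0.62 to -0.37 in the mutant on sucrose. Wild-type arrays gave 0.67 to 1.03 on phenobarbital, against -0.70 to -0.68 on sucrose. All phenobarbital arrays lay above all sucrose arrays in both differences from Oatp58Dc. The centred difference between Oatp58Db and Oatp58Da was -0.15 to 0.008 in the mutant on phenobarbital, against 0.022 to 0.20 in the mutant on sucrose. In wild type it was 0.099 to 0.22 on phenobarbital, against -0.35 to -0.16 on sucrose, so it moved in opposite directions in the genotypes. The differences are given as a description with no test, since the 3 genes were set against each other with their values known.

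**Figure D2:**
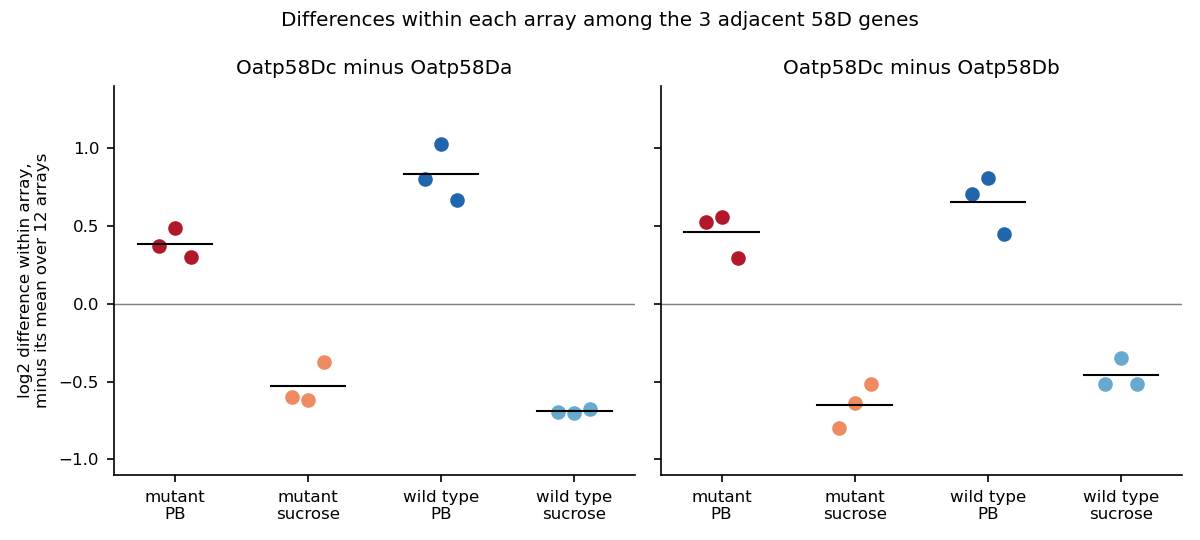
The vertical axis gives the log2 difference between a pair of 58D genes within each array, minus its mean over the 12 arrays, and the horizontal axis the 4 groups; points are arrays and black lines are group means (PB, phenobarbital). All 6 phenobarbital arrays lie at or above 0.29 and all 6 sucrose arrays at or below -0.35 in both panels.

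The genes next to the row were read in the same way. On one side lie CG30278 and ari-2, and on the other dve and CG5819, and none of these 4 was called in either genotype. CG30278, which overlaps Oatp58Da in the gene table, had a log2 change of -0.91 ± 0.41 in the mutant (adjusted p = 0.30) and -0.27 ± 0.41 in wild type (adjusted p = 0.70). Which strand each probe set reads is not stated in the sources used. The transcription factor gene dve had changes of 0.036 ± 0.22 in the mutant and -0.28 ± 0.22 in wild type. Around all 5 Oatp loci, 21 flanking or intervening genes were measured. In the mutant 1 was called, where 4.62% of all probe sets were, and in wild type 0, where 4.27% were. Both counts are near these shares. The called gene, CG31883, overlaps Oatp30B in the gene annotation. It fell by 1.59 ± 0.38 on the log2 scale in the mutant (adjusted p = 0.044), while its change in wild type was -1.07 ± 0.38 (adjusted p = 0.22). Oatp33Eb also overlaps CG5418 there, Oatp74D overlaps edin and Oatp26F overlaps CG34345.

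**Figure D3:**
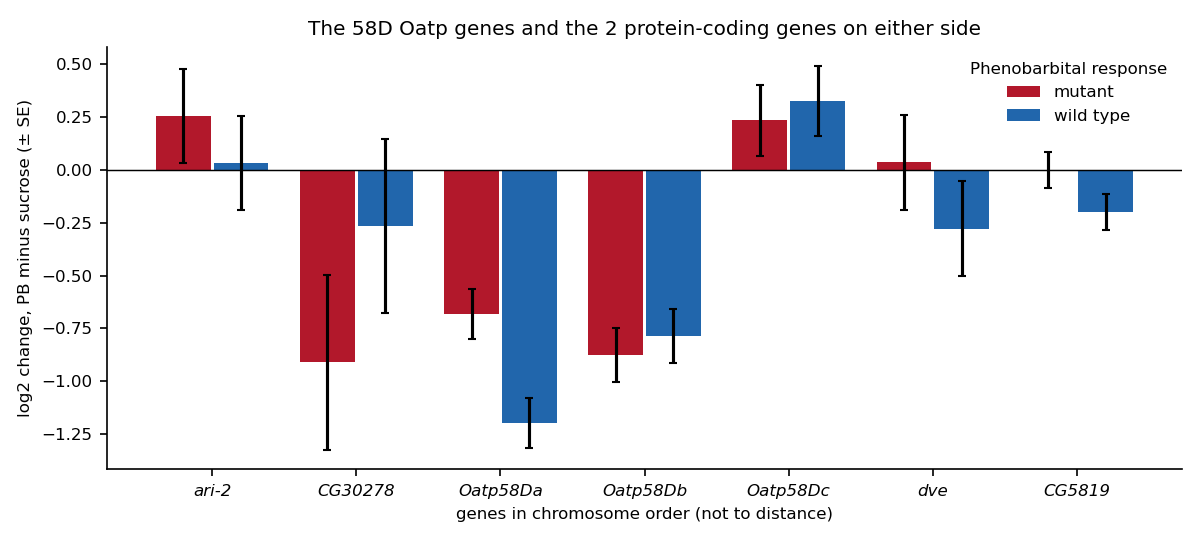
Bars give the log2 change on phenobarbital against sucrose for the 3 adjacent 58D Oatp genes and their flanking protein-coding genes, in chromosome order but not to distance, with error bars of 1 SE from the fit. Oatp58Da and Oatp58Db are the lowest bars with small errors; CG30278 in the mutant is as low, at -0.91, with an SE of 0.41.

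Oatp74D, the ecdysone importer, had its lowest values in the mutant on sucrose, though no difference between diets or genotypes was called for it in the main fit. Its log2 values were 7.64, 7.51 and 7.41 in the mutant on phenobarbital, against 7.15, 6.77 and 6.94 in the mutant on sucrose. In wild type they were 7.48, 7.66 and 7.70 on phenobarbital, against 7.59, 7.41 and 7.44 on sucrose. The 3 mutant sucrose arrays lay below the other 9. The mutant's change on phenobarbital passed the adjusted p but missed the minimum fold, at 1.49-fold higher (log2 change 0.57 ± 0.10; adjusted p = 0.011), and wild type gave 0.13 ± 0.10 (adjusted p = 0.53). It was called without replicate 3 of the mutant on phenobarbital (0.62) or without replicate 1 of the mutant on sucrose (0.67). In a fit of the 6 mutant arrays alone its adjusted p was 0.065.

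Between genotypes, Oatp74D had the largest difference of the family on sucrose, but not on phenobarbital. On sucrose the log2 difference of mutant minus wild type was -0.53 ± 0.10 (95% interval -0.77 to -0.29; unadjusted p = 0.00069; adjusted p = 0.093, limma), and the groups did not overlap. On phenobarbital it was -0.090 ± 0.10 (95% interval -0.33 to 0.15; adjusted p = 0.54). With quantile normalization the difference on sucrose was -0.56 with an adjusted p of 0.039, still under 1.5-fold. That p was the lowest of 21 alternatives, and the highest, 0.425, came from a fit of the sucrose groups alone (limma). With a replicate block it was 0.14, and with an intensity trend and robust prior 0.22. The difference between the responses of mutant and wild type was 0.44 ± 0.15 (95% interval 0.11 to 0.77; unadjusted p = 0.016; adjusted p = 0.84). It therefore did not pass the test over all probe sets.

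Oatp30B had positive changes in both genotypes, under the minimum fold. Its log2 values were 9.18, 8.97 and 9.13 in the mutant on phenobarbital, against 8.71, 8.75 and 8.40 in the mutant on sucrose. In wild type they were 8.95, 8.94 and 9.005 on phenobarbital, against 8.75, 8.84 and 8.76 on sucrose. All phenobarbital arrays lay above all sucrose arrays of their genotype. The change was 1.39-fold in the mutant (log2 change 0.47 ± 0.09; adjusted p = 0.015) and 1.14-fold in wild type (log2 change 0.18 ± 0.09; adjusted p = 0.44), so it was not called in either. The mutant's adjusted p was 0.060 without replicate 1 and 0.062 without replicate 3 of the mutant on phenobarbital, and 0.11 in a fit of the mutant arrays alone. Averaged over both genotypes, the change was 0.33 ± 0.06 for Oatp30B (adjusted p = 0.011) and 0.35 ± 0.07 for Oatp74D (adjusted p = 0.016), both under 1.5-fold. By adjusted p alone, without a minimum fold, 5.42% of all probe sets were higher in this mean and 4.24% in the mutant.

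Oatp33Ea and its near neighbour Oatp33Eb showed no change past the test. Oatp33Ea had log2 values of 8.56, 8.87 and 8.57 in the mutant on phenobarbital, against 8.40, 8.56 and 8.44 in the mutant on sucrose. Wild-type arrays had 8.24, 8.55 and 8.36 on phenobarbital, against 8.82, 8.56 and 8.22 on sucrose. Its change was 0.20 ± 0.15 in the mutant (95% interval -0.15 to 0.55) and -0.15 ± 0.15 in wild type (95% interval -0.50 to 0.20), with overlapping diets in both.

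Oatp33Eb spread as widely. It had 7.92, 8.16 and 8.09 in the mutant on phenobarbital, against 8.13, 7.84 and 8.21 in the mutant on sucrose. Wild-type arrays had 7.71, 8.14 and 8.34 on phenobarbital, against 8.63, 8.13 and 8.34 on sucrose. The groups overlapped throughout. Its change was -0.003 ± 0.18 in the mutant (95% interval -0.42 to 0.41) and -0.30 ± 0.18 in wild type (95% interval -0.72 to 0.11). Changes of up to about the minimum fold thus lie within the intervals of both genes, and the wild-type interval of Oatp33Eb reaches past it.

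Oatp26F gave no readable signal. Its log2 values were 2.14, 2.14 and 2.14 in the mutant on phenobarbital, against 2.14, 2.15 and 2.12 in the mutant on sucrose. In wild type they were 2.18, 2.15 and 2.16 on phenobarbital, against 2.13, 2.15 and 2.15 on sucrose. A mean log2 value under 4 is called dim here, and 44.4% to 45.6% of the probe sets of an array lay below it. Near this floor no change can be read, so the flat profile says nothing about the level of Oatp26F.

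No Oatp gene was called between the genotypes. On sucrose, where 0.213% of all probe sets were called, 0 of 8 members passed. At an unadjusted p under 0.05 there was 1 of 8, Oatp74D, which is near the 9.68% of all probe sets (limma). On phenobarbital, where 0.117% were called, 0 of 8 passed. At an unadjusted p under 0.05 there was 1 of 8, Oatp58Da, near the 11.5% of all probe sets. Deviations of phenobarbital arrays of the same replicate number correlated between the genotypes, at r of 0.31 to 0.695. Arrays of different number gave 0.40 and 0.15, but also -0.36, -0.37, -0.53 and -0.57. The titles do not say what the number marks, so a pairing is possible but not shown. A limma fit of these 6 arrays with the number as a block, added after seeing the data, called 213 probe sets. Without the block the 6 arrays gave 11, and the main fit gave 22. With the block again 0 of the 8 members were called, with an adjusted p of 0.11 for Oatp58Da and 0.063 for Oatp33Ea. For Oatp58Da the difference of mutant minus wild type on phenobarbital was 0.38 ± 0.12 (95% interval 0.11 to 0.65; adjusted p = 0.37), with every mutant array above every wild-type array, and on sucrose -0.14 ± 0.12 (adjusted p = 0.88). The response of Oatp58Da in the mutant minus that in wild type was 0.52 ± 0.17 (95% interval 0.13 to 0.90; unadjusted p = 0.014; adjusted p = 0.84). For Oatp58Db this difference was -0.088 ± 0.18 (95% interval -0.50 to 0.32; adjusted p = 0.86).

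The test of a difference between the responses called 0 of 18769 probe sets, with 624, or 3.32%, at an unadjusted p under 0.05 and 2 of the 8 members among these. The smaller fall of Oatp58Da in the mutant is therefore not shown to differ from that in wild type.

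**Figure D4:**
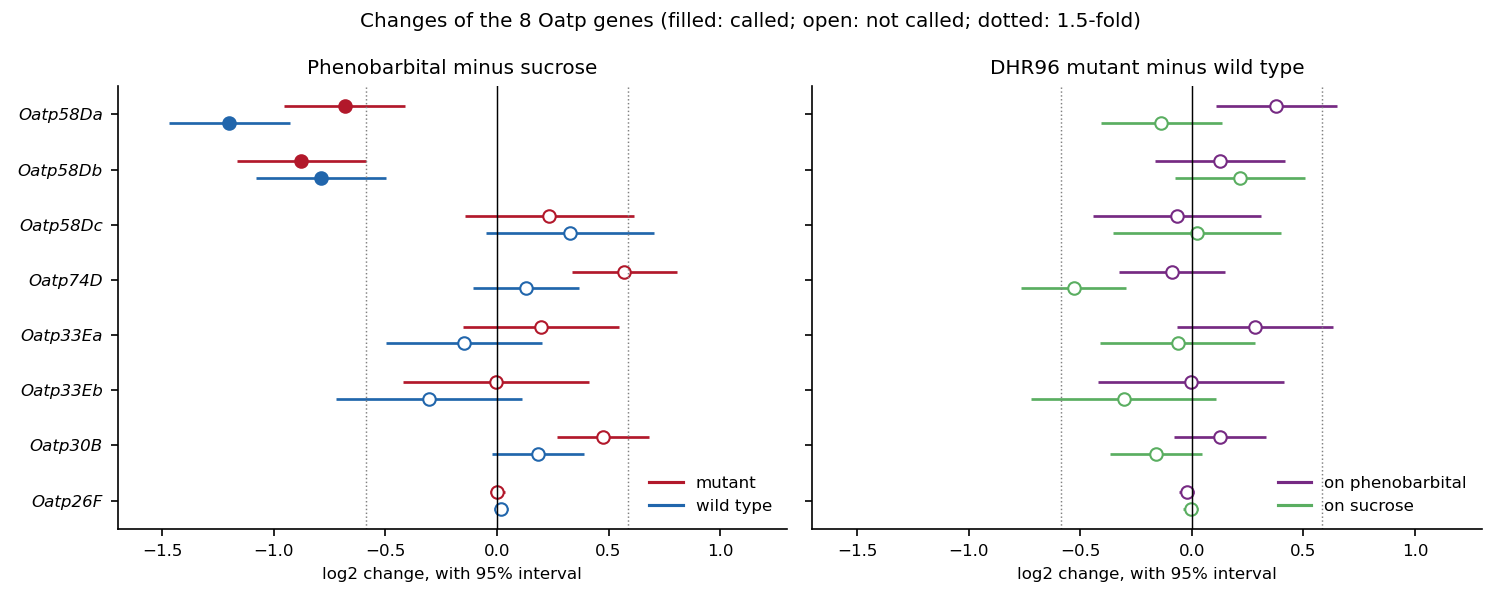
Points give the log2 change of each Oatp gene with its 95% interval, for phenobarbital minus sucrose on the left (mutant above wild type) and for mutant minus wild type on the right (phenobarbital above sucrose). Filled points were called, open points were not, and dotted lines mark 1.5-fold. The 4 filled points are Oatp58Da and Oatp58Db in both genotypes, between -1.20 and -0.68; no point is filled on the right.

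The falls of Oatp58Da and Oatp58Db were set beside markers of the Malpighian tubule. For comparison, 4.62% of all probe sets were called in the mutant and 4.27% in wild type. Of 12 listed markers 9 were measured, and 2 rose and 2 fell in each genotype. Those that fell were Alp4, an alkaline phosphatase gene, and Irk3, an inward rectifier potassium channel gene. The changes of Alp4 were -1.53 ± 0.15 in the mutant (adjusted p = 0.00026) and -1.78 ± 0.15 in wild type (adjusted p = 0.00012). Those of Irk3 were -0.85 ± 0.15 in the mutant (adjusted p = 0.0087) and -0.90 ± 0.15 in wild type (adjusted p = 0.0068), close in size to those of Oatp58Db.

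The markers that rose were ry, the xanthine dehydrogenase gene rosy, and salt, a gene of the sodium-coupled solute carriers. The changes of ry were 2.14 ± 0.20 in the mutant and 2.12 ± 0.20 in wild type, and those of salt were 1.78 ± 0.24 in the mutant and 1.905 ± 0.24 in wild type. The list's median change was -0.24 in the mutant and -0.18 in wild type. Its summed intensity was 4131 to 4549 in the mutant on phenobarbital, against 4880 to 5895 in the mutant on sucrose. In wild type it was 4063 to 4845 on phenobarbital, against 5536 to 6188 on sucrose. Alp4 had the highest intensity of these markers on sucrose and weighs most in the sum. It averaged log2 9.345 ± 0.11 in the mutant on phenobarbital, against 10.87 ± 0.20 in the mutant on sucrose (SD, n = 3 each). Wild-type arrays averaged 9.24 ± 0.27 on phenobarbital, against 11.025 ± 0.12 on sucrose. No sum without Alp4 was computed, so the lower sums do not show a fall of the markers as a set. Of the 9 markers only Lkr was dim. The tubule markers thus moved with diet in both directions, and their part in the Oatp changes was not tested.

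Markers of other tissues moved with diet as well. Their counts stand beside the same 4.62% of all probe sets called in the mutant and 4.27% in wild type. Of 7 accessory gland markers of the male, 5 fell in the mutant and 3 in wild type. Their summed intensity was 13296 to 25849 in the mutant on phenobarbital, against 43907 to 73691 in the mutant on sucrose. For wild type it was 15243 to 30029 on phenobarbital, against 47504 to 63890 on sucrose. Of 7 measured glia and blood-brain barrier markers, 1 fell in each genotype, the glutamine synthetase gene Gs2. Gs2 made up most of their summed intensity, which was 6754 to 9003 in the mutant on phenobarbital, against 10721 to 13108 in the mutant on sucrose. Wild-type arrays gave 8604 to 10163 on phenobarbital, against 11952 to 14612 on sucrose. Without Gs2 the sum of the other 6 was 1598 to 2003 in the mutant on phenobarbital, against 1849 to 2154 in the mutant on sucrose. Wild-type sums without it were 1789 to 2285 on phenobarbital, against 2095 to 3185 on sucrose, so the diets overlapped in both genotypes. Of 8 yolk, eggshell and oocyte markers of the female, 2 fell in each genotype, the vitelline membrane genes Vm26Aa and Vm34Ca. Vm26Aa averaged log2 3.70 ± 0.33 in the mutant on phenobarbital, against 11.87 ± 1.10 in the mutant on sucrose (SD, n = 3 each). Wild-type arrays averaged 4.21 ± 0.05 on phenobarbital, against 10.45 ± 1.61 on sucrose (SD, n = 3 each). Both genes had phenobarbital arrays below the dim level of 4, so the sizes of these falls are not given. Of 10 testis markers 0 were called in either genotype (limma). At an unadjusted p under 0.05 there were 5 in the mutant, where 17.6% of all probe sets passed, and 0 in wild type, where 14% did. The summed intensity of these 10 markers was 13055 to 20580 in the mutant on phenobarbital, against 22642 to 35885 in the mutant on sucrose. In wild type it was 17850 to 29357 on phenobarbital, against 21890 to 35796 on sucrose. Of 3 measured midgut markers 1 rose and 1 fell in each genotype, and of 5 fat body markers 2 rose and 1 fell in the mutant, while 1 rose and 0 fell in wild type. Of 9 neuron markers 0 were called in the mutant, and 1, elav, fell in wild type. The part of these markers in the Oatp changes was not tested.

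Among carriers of drugs and organic ions outside the Oatp family, single genes moved further than any Oatp gene. Of 11 measured, 3 rose and 2 fell in the mutant, while 2 rose and 4 fell in wild type. Over all probe sets, 4.62% were called in the mutant and 4.27% in wild type. The P-glycoprotein gene Mdr50, an ABC pump that exports drugs, rose by 3.15 ± 0.42 on the log2 scale in the mutant and by 2.66 ± 0.42 in wild type. The multidrug resistance-associated pump gene MRP rose by 1.52 ± 0.06 in the mutant and by 1.42 ± 0.06 in wild type. Mdr49, a further P-glycoprotein gene, rose by 1.36 ± 0.22 in the mutant, and its change in wild type was 0.85 ± 0.22 (adjusted p = 0.065).

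Other members of this list fell. Orct, an organic cation transporter gene, fell by 1.71 ± 0.21 in the mutant and by 1.71 ± 0.21 in wild type. MFS1, of the major facilitator family, fell by 1.82 ± 0.23 in the mutant and by 4.27 ± 0.23 in wild type. It was dim on phenobarbital in both genotypes and in the mutant on sucrose, so the sizes cannot be compared. In wild type Orct2 fell by 0.98 ± 0.21 and the ABC pump gene Mrp5 by 1.01 ± 0.10, while in the mutant their changes were -0.28 ± 0.21 and -0.15 ± 0.10. The median change of the list was 0.062 in the mutant and -0.053 in wild type, as small as that of the Oatp family.

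**Figure D5:**
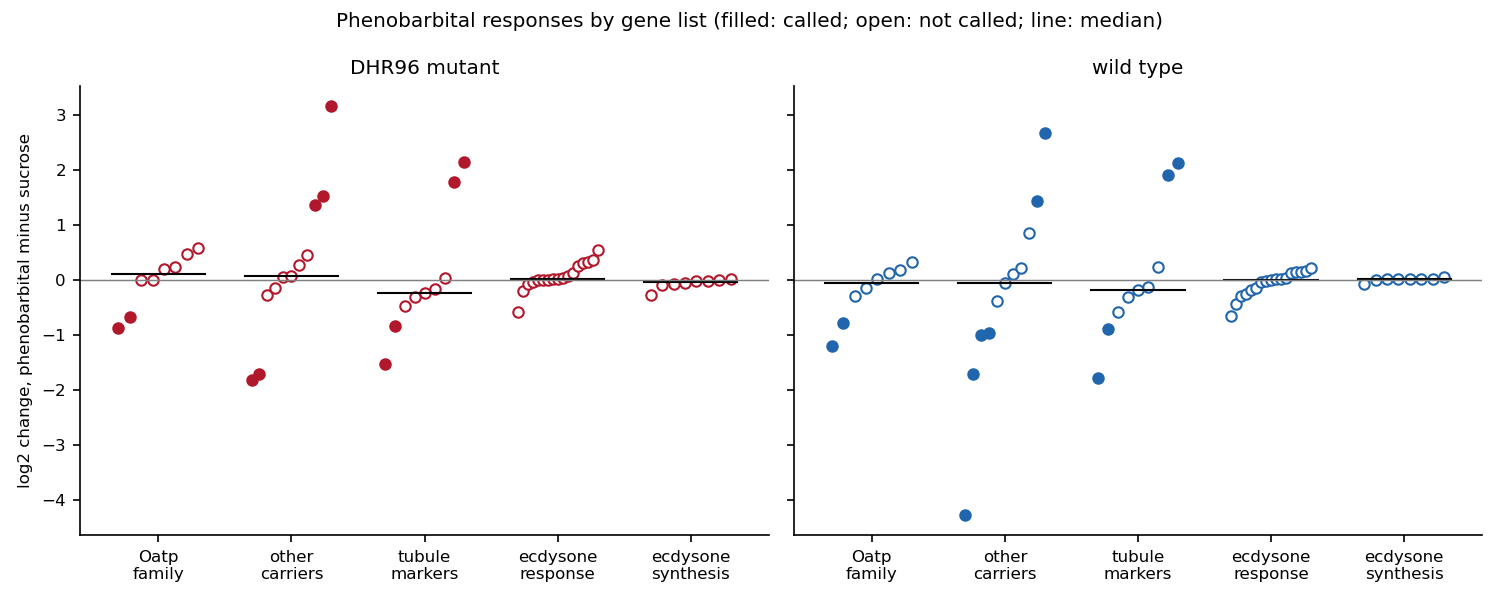
Each point is the log2 change of 1 gene on phenobarbital against sucrose, in the mutant on the left and in wild type on the right, for 5 gene lists along the horizontal axis; filled points were called and black lines are list medians. The Oatp genes lie between -1.20 and 0.57, within the spread of the other carriers, which runs from -4.27 to 3.15, and no ecdysone gene is filled.

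Because Oatp74D imports ecdysone, the genes of ecdysone synthesis and response were read beside it. Of 17 measured genes of the receptor and response list, 0 were called in the mutant and 0 in wild type at the call threshold (limma). The shares of all probe sets called were 4.62% in the mutant and 4.27% in wild type. EcR, which encodes the ecdysone receptor, had a change of 0.068 ± 0.06 in the mutant and -0.012 ± 0.06 in wild type. Its partner gene usp had 0.35 ± 0.19 in the mutant and 0.14 ± 0.19 in wild type. Eip63E passed the adjusted p but not the minimum fold in wild type, at -0.43 ± 0.09 (adjusted p = 0.018). The list's median change was 0.009 in the mutant and -0.012 in wild type, and 7 of its genes were dim. For mutant minus wild type on sucrose, where Oatp74D differed most, 0 of the 17 were called, against 0.213% of all probe sets. At an unadjusted p under 0.05 there were 3, where 9.68% of all probe sets passed (limma). EcR differed by -0.24 ± 0.06 (adjusted p = 0.17) and the receptor gene DopEcR by -1.01 ± 0.30 (adjusted p = 0.26). The median of the list was -0.022, and 6 of the 17 differences were positive. Of 8 measured genes of ecdysone synthesis and turnover, 7 were dim and 0 were called.

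For the called members, the genes with the most similar profiles were sought among 8747 genes that were not dim. Likeness was the root mean square difference between log2 values over the 12 arrays, each gene centred on its own mean. Closest to Oatp58Da were CAH9, a carbonic anhydrase gene, at 0.15, followed by CG4592, Snrk, CG32483 and hui at up to 0.17. Of these 5, all were called lower in wild type and all but hui in the mutant. The changes of CAH9 were -0.86 ± 0.17 in the mutant and -1.32 ± 0.17 in wild type.

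Closest to Oatp58Db were nemy, at 0.11, then CG5767, CG9044, kraken and the acyltransferase gene Agpat2 at up to 0.15. All 5 were called lower in both genotypes. The changes of nemy were -0.79 ± 0.14 in the mutant and -0.75 ± 0.14 in wild type. The lists of 5 do not share a gene, and the choice of profiles like a called member fixes the direction of their changes.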

How the data were processed

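The table analysed holds expression intensities per probe set, deposited by the authors. Per the submitters' processing notes they were made with GCRMA, which corrects background, normalizes between arrays and summarises probes; its version is not stated there. The values run from 2.46 to 52446, so they were taken as linear and converted to log2 with no further scaling. Gene names came from the platform annotation, in which 13647 probe sets name 1 gene. Gene order came from the Release 6 plus ISO1 MT table.

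All 18769 probe sets entered 1 limma 3.58.1 fit (R 4.3.3) with a mean for each group and empirical Bayes moderation, on 8 residual degrees of freedom. Contrasts were phenobarbital against sucrose within each genotype, mutant against wild type within each diet, the interaction and both mean effects. For a listed gene with several probe sets, the one with the highest mean was used. Replicate numbers come from the titles, which do not say what a number marks. Arrays of the same number correlated at over 0.1 in all 3 pairs (r of 0.31 to 0.695) only between the 2 phenobarbital groups, which were therefore also fitted with a block. Over all groups, 18 of 36 pairs of different number were over 0.1 as well. The scripts were tested on simulated data. The text names all members, Hr96, called genes of the lists with the largest changes, and the 5 nearest profiles of each called member. Flanking genes were taken by position, and EcR, usp, Eip63E, Lkr and other uncalled genes outside this rule were picked with their values known. The members and lists were chosen with earlier results of these data known. Figures were drawn with matplotlib 3.10.9.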

Additional observations from a re-analysis of the deposited data

How the results depend on the processing

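The 8 members were recomputed in 7 contrasts under quantile normalization, 16 added to each intensity, array weights, a robust prior with an intensity trend, dim probe sets removed, no minimum fold, a minimum of 2-fold, a replicate block, a fit of the 2 groups compared and without each array in turn, and, added after seeing the data, a fit of the 2 phenobarbital groups with a replicate block. Of 1153 such values, 1141 kept their side of the call threshold, 6 gained a call, 6 lost one and none of the called ones changed sign; 35 uncalled values changed sign. With no minimum fold, 2 Oatp genes were called higher in the mutant and 2 in the mean over genotypes, Oatp74D and Oatp30B in both. With a 2-fold minimum, 1 was called lower in wild type, 0 in the mutant and 0 in the mean. In either direction, 506, 550 and 608 of the 18769 probe sets were called there. With 16 added, 1 was called lower in the mutant. The share of all probe sets called lower was not computed for these settings. Without 1 array, the Oatp genes called higher in the mutant numbered 0 to 1 and those called lower stayed at 2 in both genotypes. The adjusted p ranged over the alternatives from 0.00014 to 0.020 for Oatp58Da in wild type, 2.5e-07 to 0.043 for Oatp58Da in the mutant, 0.0010 to 0.032 for Oatp58Db in wild type and 4.2e-08 to 0.035 for Oatp58Db in the mutant. The array weights did not converge and gave 1 mutant sucrose array a weight of 104, so values under them are of little use. The lowest adjusted p of both genes in the mutant came from these weights. Under the other settings the lowest in the mutant was 0.0032 for Oatp58Da and 0.00050 for Oatp58Db (limma).

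Counts over all probe sets moved by more than 1.5 times as follows, against 801 (wild-type response), 867 (mutant response), 40 (genotype on sucrose), 22 (genotype on phenobarbital), 1070 (mean response), 86 (mean genotype) and 0 (interaction). A 2-fold minimum gave 506, 550, 608 for the mean response and 41 for the mean genotype difference, and no minimum gave 1835 and 158 for these means. Fits of only 2 groups gave 391 in wild type, 4 on sucrose and 11 on phenobarbital. Array weights gave 2559 in the mutant, 172 on sucrose, 74 on phenobarbital, 221 for the mean genotype difference and 5 for the interaction. The trend gave 34 on phenobarbital and 7 for the interaction, the dim filter 131 for the mean genotype difference and 16 added 2 for the interaction. Without 1 array, the counts ran from 19 to 185 on sucrose, 45 to 230 for the mean genotype difference and 0 to 15 for the interaction, each highest without wild-type sucrose replicate 3.

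With the replicate number as a block, Oatp58Da changed by -0.68 in the mutant and -1.20 in wild type, and no call of a member was gained or lost. Arrays with the same number gave r of -0.71 to 0.70 over 18 pairs, 7 of them over 0.1. Those with different numbers gave -0.79 to 0.69 over 36 pairs, 18 of them over 0.1. All 3 same-number pairs of the 2 phenobarbital groups were over 0.1 (0.31 to 0.695), which no other pair of groups had. Between the 2 phenobarbital groups, pairs of different number ran from -0.57 to 0.40. The lowest was wild-type array 2 with mutant array 3, and the highest wild-type array 2 with mutant array 1. Only the phenobarbital genotype comparison was also fitted as paired. This gave 213 calls, against 11 in the fit of these 2 groups without a block and 22 in the main fit, and 0 Oatp genes.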
